A study of Mus musculus with 6 samples.

Results

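Foxp3, Il2ra, Ikzf2, Ctla4 and Tigit, 5 genes that mark regulatory T (Treg) cells, were followed across the cell classes, lymph nodes and genotypes of a single-cell RNA data set from pregnant mice. They were taken by name, and all 5 are among the 14125 genes measured. The 7 dams were 4 Aire-DTR mice, numbered 4, 7, 8 and 36, and 3 WT mice, numbered 1, 6 and 97. In Aire-DTR mice the receptor for diphtheria toxin is made by cells that express Aire, so the toxin removes those cells. All 7 dams, WT included, were mated with BALB/c males and received the toxin over the first 9 days of pregnancy, and tissue was taken at E9.5. Each dam gave a uterine-draining lymph node sample (udLN) and a brachial lymph node sample (brLN), which makes 14 samples of mouse and node. The cell table marks Aire-DTR mouse 4 as resorbed and mice 8, 36 and 7 as growth-restricted (IUGR), so fetal outcome and genotype cannot be told apart. Mice 8 and 6 were loaded together as pool 1, mice 36 and 97 as pool 2, and mice 4, 7 and 1 as pool LN. Cells were sorted on CD45 before 3′ droplet sequencing. The labels differ on whether CD3 was part of the gate, and the table holds 2267 B cells.

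Treg cells hold back immune responses, and in pregnancy they help the mother tolerate fetal antigens. Foxp3 encodes the transcription factor that defines the lineage. Il2ra encodes CD25, the alpha chain that gives the IL-2 receptor its high affinity, and Ikzf2 encodes Helios, an Ikaros family transcription factor. Ctla4 encodes an inhibitory receptor that takes CD80 and CD86 away from the costimulatory receptor Cd28. Tigit encodes an inhibitory receptor that binds Pvr and is also found on NK cells and on activated and follicular helper T cells.

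Of the 9427 cells deposited, 2127 cells of the first well of pool LN stand in the table a second time with identical counts, and each was counted once. This left 7300 cells with 22833288 unique molecular identifiers (UMIs), a median of 2910 UMIs per cell, and between 155098 and 3351478 UMIs per mouse and node. A further 214 barcodes were shared between pairs of wells with unlike counts. The authors' CD4 subset table names 155 cells as Act. Treg and 266 as Resting Treg. These 421 cells, called Treg cells here, were set against 2564 CD4 T cells in all. Some samples held few: WT mouse 97 had 9 CD4 T cells and 5 Treg cells in the udLN, and WT mouse 6 had 9 Treg cells in the brLN. Globin transcripts summed to between 700.3 and 2747 counts per 1000000 UMIs (CPM) in the Treg cells of the 8 samples of pools 1 and 2, and to between 0 and 23.8 CPM in the 6 samples of pool LN. Their part in the results was not tested. In the Treg sums with at least 10 cells, the T cell markers Cd3d, Cd3e, Cd3g and Trac summed to between 3611 and 4431 CPM and 6 Treg genes other than the members to between 1756 and 3087 CPM. The B cell genes Cd79a, Cd79b and Ms4a1 summed to between 9.67 and 189 CPM, the NK markers Ncr1, Klrb1c and Klrd1 to between 0 and 13.5 CPM, and the myeloid markers Lyz2, Cst3, Csf1r and Itgax to between 127 and 233 CPM. In Act. Treg cells Cst3 alone of these myeloid markers was above 0. The CD8 markers Cd8a and Cd8b1 varied more, from 37.6 to 289 CPM in the udLN and 40.4 to 137 CPM in the brLN of Aire-DTR mice, against 23.7 and 246 CPM in the udLN and 35.7 and 45.2 CPM in the brLN of WT mice, and their part in the results was not tested. Cd4 lay between 71.2 and 193 CPM in these sums. The CD8 markers exceeded it in Aire-DTR mouse 4, at 289 against 87.5 CPM in the udLN and 137 against 73.8 CPM in the brLN. They also did in the udLN of WT mouse 1, at 246 against 172 CPM, and were below Cd4 in the other sums.

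The genes lie on 4 chromosomes, with Ctla4 and Ikzf2 both on chromosome 1. In the GENCODE annotation of GRCm38, Foxp3 (ENSMUSG00000039521) spans chrX:7573644-7595245 on the plus strand and Il2ra (ENSMUSG00000026770) spans chr2:11642807-11693193 on the plus strand. Ctla4 (ENSMUSG00000026011) spans chr1:60887000-60915832 on the plus strand, between the genes of its relatives Cd28 and Icos. Ikzf2 (ENSMUSG00000025997) spans chr1:69531214-69687245 and Tigit (ENSMUSG00000071552) spans chr16:43648867-43664146, both on the minus strand. Foxp3 overlaps Ppp1r3f, Ccdc22 and Gm36995 on the opposite strand and the RNA gene Flicr on its own strand. Ikzf2 overlaps Gm29114 on the opposite strand and Gm29112 and Gm28112 on its own, Il2ra overlaps Gm37881 on its own strand, and Ctla4 overlaps the pseudogene Rpl18-ps1 on its own strand. The sources used here do not say whether counting used strand, and strand would not separate genes on the same one, so reads in those stretches cannot be assigned with certainty.

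RefSeq promoter windows on GRCm38.p6, 250 bases before to 50 bases after the start, were at hand for 4 of the 5 genes. They are shown because Foxp3, Il2ra and Ctla4 had alike patterns over the cell classes and Tigit did not. Capitals mark every match, on either strand, to 6 motifs. These are GGAAA for the core that NFAT factors bind, TATAAA for the TATA box of the basal machinery, TTCNNNGAA for STAT factors, which include the STAT5 proteins downstream of the IL-2 receptor, TGTGGT for RUNX factors, TGTTTAC for forkhead factors such as Foxp3 itself, and TGANTCA for AP-1 factors. The windows are chrX:7579426-7579725 (plus strand) for Foxp3, chr2:11642542-11642841 (plus) for Il2ra, chr1:60908775-60909074 (plus) for Ctla4 and chr16:43664135-43664434 (minus) for Tigit. These RefSeq starts lie 6032 bases inside the GENCODE span above for Foxp3 and 22025 bases inside it for Ctla4. For Il2ra and Tigit the RefSeq and GENCODE starts are 15 and 38 bases apart.
Foxp3: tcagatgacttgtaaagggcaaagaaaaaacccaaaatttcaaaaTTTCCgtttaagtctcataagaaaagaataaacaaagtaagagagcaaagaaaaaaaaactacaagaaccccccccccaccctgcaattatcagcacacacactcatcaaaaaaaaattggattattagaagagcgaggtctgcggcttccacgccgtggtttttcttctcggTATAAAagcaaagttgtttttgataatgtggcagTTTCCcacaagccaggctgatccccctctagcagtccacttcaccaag
Il2ra: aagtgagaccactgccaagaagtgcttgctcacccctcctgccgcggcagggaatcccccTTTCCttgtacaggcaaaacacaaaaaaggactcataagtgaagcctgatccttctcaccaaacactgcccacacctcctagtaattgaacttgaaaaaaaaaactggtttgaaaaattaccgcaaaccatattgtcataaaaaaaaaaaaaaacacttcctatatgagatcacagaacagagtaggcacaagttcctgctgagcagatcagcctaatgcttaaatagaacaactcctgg
Ctla4: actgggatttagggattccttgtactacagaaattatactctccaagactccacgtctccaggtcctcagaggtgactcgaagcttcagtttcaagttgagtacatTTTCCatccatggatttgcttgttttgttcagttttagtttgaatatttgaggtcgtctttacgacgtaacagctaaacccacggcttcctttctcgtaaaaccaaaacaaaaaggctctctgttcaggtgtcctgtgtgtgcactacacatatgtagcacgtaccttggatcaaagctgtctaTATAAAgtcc
Tigit: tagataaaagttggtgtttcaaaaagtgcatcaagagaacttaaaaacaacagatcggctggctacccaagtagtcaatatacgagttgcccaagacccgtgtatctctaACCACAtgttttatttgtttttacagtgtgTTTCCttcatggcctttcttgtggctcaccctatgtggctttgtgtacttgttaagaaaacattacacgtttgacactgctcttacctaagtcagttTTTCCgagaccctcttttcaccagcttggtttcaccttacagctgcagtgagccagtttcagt
The NFAT core was in each of the 4 windows, and in 61.5% of the 32544 windows of that length in the table. TATAAA was in the Foxp3 and Ctla4 windows and in 13.6% of all windows, in Ctla4 after the annotated start. TGTGGT was in the Tigit window and in 16.7% of all. The STAT motif (8.33% of all windows), the forkhead motif (3.66%) and the AP-1 motif (7.79%) were in none of the 4, and the window of a second annotated Foxp3 start (chrX:7580233-7580532, plus strand) had 1 STAT match that overlaps an NFAT match. These are matches of letters and show no binding.

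The 5 genes were concentrated in the Treg subsets to different degrees. Act. Treg and Resting Treg cells together held 82.5% of all Foxp3 UMIs, 77.4% of those of Il2ra, 67.1% of those of Ctla4, 66.8% of those of Ikzf2 and 55.7% of those of Tigit, in 421 of 7300 cells. Levels are CPM over the summed cells, and a class level is the mean over mice with at least 5 cells of it. The subsets came from clustering these same cells, so differences between classes are described and not tested.

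Foxp3 was the most even of the 5 between the Treg subsets. It ranged from 351 to 616 CPM over the 7 mice in Act. Treg cells, with a median of 480 CPM, and from 237 to 669 CPM in Resting Treg cells, with a median of 481 CPM. Act. Treg cells had the higher level in 4 of 7 mice. The next classes were Myeloid at 54.9 ± 110 CPM (SD, n = 6 mice) and Th17 at 45.9 ± 51.0 CPM (SD, n = 7), and neither reached the lowest Treg level except for 1 mouse of the Myeloid class, at 274 CPM. The Myeloid level rests on 9 UMIs in 3 of 73 cells. That class is mixed, with 68799 CPM of globin transcripts and 1243 CPM of the T cell markers. The fall to the third class was the only step between neighbours whose ranges over mice did not overlap from Act. Treg downwards. CD4+ Naive T cells held 5.49 ± 3.85 CPM (SD, n = 7) and B cells, which should lack the gene, 1.13 ± 1.35 CPM (SD, n = 7). No Foxp3 UMI was seen in 73 gdT cells, which allows a share of up to 4.11% of cells with a UMI.

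Il2ra was lower in Act. Treg than in Resting Treg cells in 6 of 7 mice. Over mice it ranged from 207 to 471 CPM in Act. Treg cells (median 364) and from 309 to 799 CPM in Resting Treg cells (median 422), so the ranges overlapped. The highest class outside the Treg subsets was Early Act. CD4, at 60.2 ± 29.1 CPM (SD, n = 7 mice), and its range stayed below that of Act. Treg cells. Th17, Myeloid, NK, Tfh and gdT cells followed at 29.8 to 7.69 CPM on average, with overlapping ranges from each to the next.

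Ikzf2 and Ctla4 were higher in Act. Treg than in Resting Treg cells in 7 of 7 mice, with ranges that did not overlap. Ikzf2 ran from 568 to 939 CPM in Act. Treg cells (median 819) and from 167 to 362 CPM in Resting Treg cells (median 309), a ratio of 2.74 over the pooled cells. Ctla4 ran from 416 to 1022 CPM in Act. Treg cells (median 709) and from 138 to 324 CPM in Resting Treg cells (median 237), a pooled ratio of 3.22. Both were also measured outside Treg cells. Ikzf2 averaged 107 ± 54.6 CPM in Tfh cells (SD, n = 6 mice), 72.8 ± 47.9 CPM in gdT cells (n = 5) and 61.9 ± 64.8 CPM in NK cells (n = 6), and each overlapped its neighbour, as Tfh did Resting Treg. Ctla4 averaged 96.5 ± 50.2 CPM in Tfh cells (n = 6), 74.2 ± 43.5 CPM in Early Act. CD4 cells (n = 7) and 58.4 ± 39.6 CPM in Th17 cells (n = 7), and no Ctla4 UMI was seen in the 73 gdT cells.

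Tigit was the member with the sharpest contrast between the Treg subsets. It held 192 UMIs in Act. Treg cells, in 67 of 155 cells, and 0 UMIs in the 266 Resting Treg cells, whose 741205 UMIs set a floor of 4.05 CPM for 3 counts. The pooled level in Act. Treg cells, 386 CPM, was at least 95.4-fold higher than that floor. Over the 7 mice it ran from 201 to 805 CPM with a median of 416 CPM. A share of up to 1.13% of Resting Treg cells with a UMI is allowed by 0 of 266. Tfh cells came next, with 149 ± 51.5 CPM (SD, n = 6 mice), then NK cells with 114 ± 45.4 CPM (n = 6), and neighbours in this order overlapped from Act. Treg to Tfh and from Tfh to NK cells, while NK cells stayed above CD8+ Mem T cells. CD8+ Mem T cells had 17.0 ± 17.1 CPM (n = 7), B cells had 1.14 ± 0.943 CPM (n = 7) and CD4+ Naive T cells had 0.846 ± 1.06 CPM (n = 7).

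**Figure D1:**
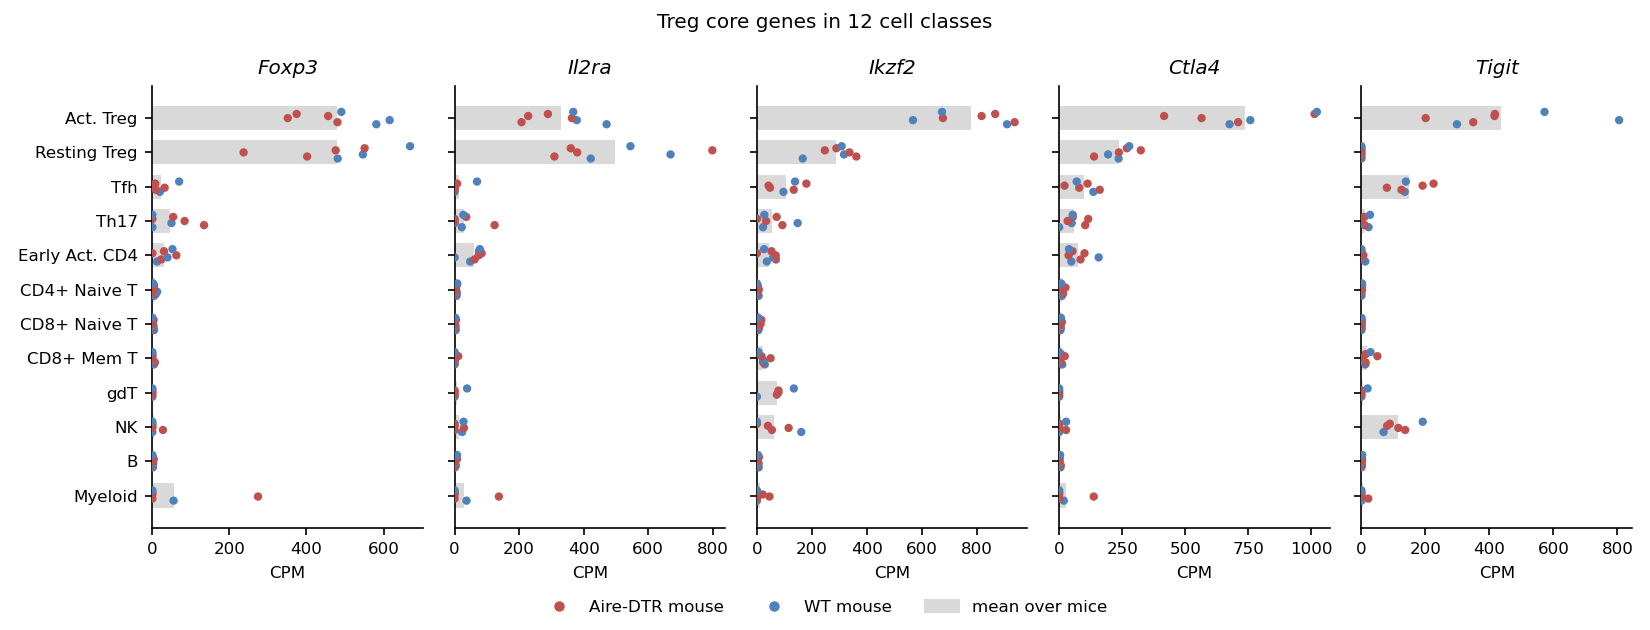
Level of each gene (CPM, horizontal axis) in 12 cell classes (rows). Points are mice with at least 5 cells of the class and grey bars are means over mice; the 2 Treg subsets lead for Foxp3, Il2ra, Ikzf2 and Ctla4, while Tigit is at 0 in Resting Treg cells and is measured in Act. Treg, Tfh and NK cells.

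The share of cells with at least 1 UMI followed the levels. After thinning each cell to 1500 UMIs, which left out 15 of 155 Act. Treg and 18 of 266 Resting Treg cells, Foxp3 was detected in 46.4% of Act. Treg and 45.6% of Resting Treg cells, against 0.0966% of B cells. Without thinning these shares were 57.4%, 55.3% and 0.176%, at median depths of 2763, 2585.5 and 2261 UMIs per cell. Thinned Ikzf2 was detected in 63.6% of Act. Treg cells (Wilson 95% interval 55.3% to 71.1%) and 31.9% of Resting Treg cells (26.4% to 37.9%), against 0.193% of B cells. Thinned Ctla4 was detected in 61.4% of Act. Treg cells (53.2% to 69.1%) and 26.6% of Resting Treg cells (21.5% to 32.4%), against 0.242% of B cells. Il2ra went the other way, with 25% of Act. Treg cells (18.6% to 32.8%) and 38.7% of Resting Treg cells (32.9% to 44.9%) after thinning, against 0.242% of B cells. These intervals cover counting error only.

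Most Treg cells carried more than 1 of the genes. At full depth 106 of 155 Act. Treg cells (68.4%) and 88 of 266 Resting Treg cells (33.1%) had UMIs of at least 3 members, and 15 Act. Treg cells had all 5. After thinning the shares with at least 3 members were 45.0% and 14.1%, against 1.63% of Tfh cells and 0.0483% of B cells. At least 1 member was seen in 98.1% of Act. Treg and 90.6% of Resting Treg cells at full depth, so 3 and 25 cells named as Treg had none. Il2ra was seen in 55.1% of the 89 Act. Treg cells with a Foxp3 UMI and in 33.3% of the 66 without, which had median depths of 2826 and 2559.5 UMIs. That gap was the widest of the pairs with Foxp3. In Resting Treg cells the same shares were 57.8% and 52.1%, and in Act. Treg cells Tigit was seen in 42.7% of those with a Foxp3 UMI and 43.9% of those without. Ctla4 was seen in 72.3% of Act. Treg cells with an Ikzf2 UMI and 79.1% of those without.

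The broad cell type column divides these cells differently from the CD4 subset table. Its CD4+ Treg class holds 328 cells, of which 257 are Resting Treg and 38 are Act. Treg, while 117 of the 155 Act. Treg cells are filed under CD4+ Mem T. The CD4+ Treg class accordingly held 58.3% of all Foxp3 UMIs and 58.1% of all Il2ra UMIs, but 34.9% of Ikzf2, 27.8% of Ctla4 and 2.90% of Tigit UMIs. The CD4+ Mem T class of 533 cells held 75.9% of all Tigit UMIs and 55.3% of all Ctla4 UMIs.

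**Figure D2:**
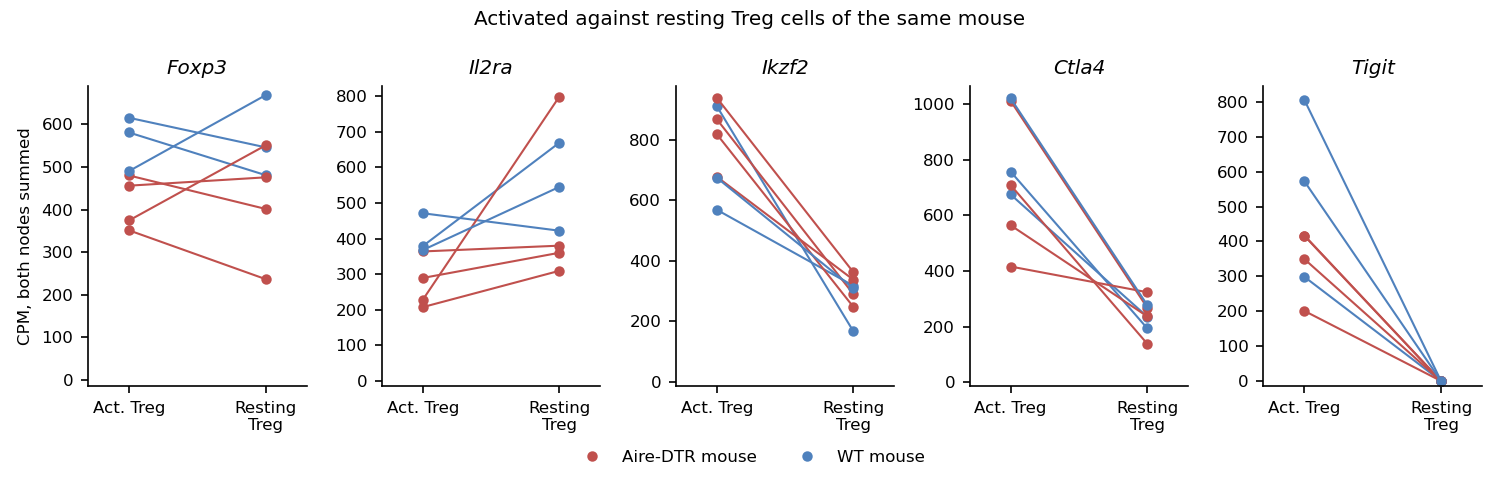
Level of each gene (CPM, vertical axis, both nodes summed) in Act. Treg and Resting Treg cells of the same mouse, joined by a line. Ikzf2, Ctla4 and Tigit are higher in Act. Treg cells in 7 of 7 mice, Il2ra in 1 of 7 and Foxp3 in 4 of 7.

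Likeness over the 12 classes, as Pearson's r of log2(CPM + 10) among 8092 genes, placed Foxp3 and Il2ra at the top of each other's lists with r = 0.96. It is a description over 12 classes that share their libraries and cells. After Il2ra, the genes most like Foxp3 were Acot9 (0.95), Apol9b (0.94), Lrrc32 (0.92), which encodes the GARP protein that holds latent TGF-beta on Treg cells, and Tmem158 (0.91). After Foxp3, those most like Il2ra were Cish (0.92), an inhibitor of cytokine receptor signalling, Lrrc32 (0.91), Tmem158 (0.90) and Papolg (0.89). Ctla4 was closest to Tnfrsf4 (0.97), which encodes the costimulatory receptor OX40, then Tiam1 (0.96), Ergic1 (0.95), Apol9b (0.94) and Lrig1 (0.94). Ikzf2 was closest to Tnfrsf18 (0.93), which encodes the receptor GITR, then Rgs1 (0.91), Traf1 (0.90), Sdf4 (0.90) and Ptger2 (0.89). Tigit stood apart, with r = 0.27 to Foxp3 and 0.20 to Il2ra, and was closest to Tle3 (0.95), Cdkn2c (0.93), Sugp1 (0.91), Slc39a4 (0.90) and Decr1 (0.90). Of each 5 genes named, 2 to 4 stayed with a pseudocount of 1 and 1 or 2 with Spearman's rho.

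The genotype comparison asks whether loss of Aire-expressing cells moved these genes in the nodes. UMIs were summed per mouse, each node was fitted alone with edgeR's quasi-likelihood test and pool as a covariate, and p was adjusted over all genes tested. In none of the 6 comparisons did a member pass an adjusted p of 0.05. In CD4 T cells of the udLN 0 of 5 members passed, against 0.129% of all genes tested, and in CD4 T cells of the brLN 0 of 5, against 0.0147%. In Treg cells 0 of 5 passed in either node, against 0% of the 1171 genes tested in the udLN and 0% of the 2006 tested in the brLN, where 52 and 81 genes had an unadjusted p under 0.05 and DESeq2 called 0. In Act. Treg cells with both nodes summed 0 of 5 passed, against 0.135%, and in Resting Treg cells 0 of 4, against 0.0667%, with Tigit removed by the filter on low counts. At an unadjusted p under 0.05 there were 2 members in CD4 T cells of each node, Il2ra and Tigit in the udLN and Foxp3 and Ikzf2 in the brLN, and 1 in Treg cells of each node, Il2ra in the udLN and Foxp3 in the brLN, with 0 in either subset. Over all genes tested, 5.46% and 4.78% had such a p in CD4 T cells of the udLN and the brLN, and 4.44% and 4.04% in Treg cells of those nodes. DESeq2's Wald test called 0 members in these comparisons. The Treg sums of a node rest on 13 to 57 cells per mouse, and a p that misses the threshold does not show equal levels. In the udLN fits of CD4 T cells and Treg cells, mouse 36 was alone in pool 2. Mouse 8 was alone in pool 1 in the fits of Act. Treg cells and of Treg cells of the brLN. With pool as a covariate, such a mouse adds nothing to the fitted genotype difference. The replicates are mice, and these fits left 2 or 3 residual degrees of freedom. No pool held more than 1 WT mouse, so spread between WT mice of the same pool was not measured. In sums over all CD4 T cells, more Treg cells and more RNA per Treg cell cannot be told apart.

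The fitted Foxp3 value was below 0, that is lower in Aire-DTR than in WT mice, in each of the 6 genotype comparisons, and passed the test in none. Its sign turned in CD4 T cells of the udLN with the duplicated cells left in (0.0023), and there and in Treg cells of the udLN when some mice were left out (up to 0.14 and 0.028). In Treg cells of the brLN it was 569, 199, 431 and 411 CPM in Aire-DTR mice 4, 7, 8 and 36, against 582 and 633 CPM in WT mice 1 and 97. The groups did not overlap among the mice fitted, and mouse 7 was the lowest. The log2 fold change was -0.69 (SE 0.27, 95% interval -1.26 to -0.12, adjusted p = 1.00, edgeR). Without mouse 4, the highest of the Aire-DTR mice, it was -0.99 (adjusted p = 0.0090, edgeR). That value rests only on mouse 7 against mouse 1 in pool LN and mouse 36 against mouse 97 in pool 2. WT mouse 6, with 9 Treg cells there, was not in the fit, which left mouse 8 alone in pool 1. The 532 CPM of WT mouse 6 lay below the 569 CPM of Aire-DTR mouse 4, so with that sample the groups would overlap. Foxp3 in Treg cells of the udLN was 343, 527, 511 and 561 CPM in Aire-DTR mice 4, 7, 8 and 36, against 455 and 593 CPM in WT mice 1 and 6, and these overlapped. The log2 fold change there was -0.16 (SE 0.29, adjusted p = 1.00, edgeR). With both nodes summed per mouse, Treg cells had 431, 278, 464 and 471 CPM in those Aire-DTR mice, against 520, 565 and 609 CPM in WT mice 1, 6 and 97, again without overlap, and the log2 fold change was -0.44 (SE 0.15, adjusted p = 0.908, edgeR). Aire-DTR was lower within 3 of 3 pools in those sums. Where groups did not overlap, here and for Ikzf2 and Il2ra, the share of all genes that did likewise was not counted. The smallest exact two-sided permutation p is 0.133 for 4 against 2 mice and 0.0571 for 4 against 3. Such a separation is therefore described only and cannot be told from chance.

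The fitted Ikzf2 value was above 0 in the same 6 comparisons and passed the test in none, and it fell below 0 in Act. Treg cells (down to -0.16) and Resting Treg cells (down to -0.19) when some mice were left out. In Treg cells of the brLN it was 580, 524, 498 and 604 CPM in Aire-DTR mice 4, 7, 8 and 36, against 452 and 430 CPM in WT mice 1 and 97, with no overlap between the mice fitted. The log2 fold change was 0.37 (SE 0.20, 95% interval -0.050 to 0.79, adjusted p = 1.00, edgeR). WT mouse 6, left out of that fit for its 9 Treg cells, had 644 CPM, above all 4 Aire-DTR mice. Act. Treg cells, the subset with more Ikzf2, were 36.5% ± 8.55 of brLN Treg cells in Aire-DTR mice (SD, n = 4). In WT mice they were 26.3% ± 0.198 (SD, n = 2), and the part of this mix in the Ikzf2 difference was not tested. By subset with both nodes summed, Ikzf2 was higher in Aire-DTR within 1 of 2 pools in Act. Treg and 1 of 3 in Resting Treg cells. The Ikzf2 values in Treg cells of the udLN were 579, 263, 701 and 474 CPM in the Aire-DTR mice, against 455 and 166 CPM in WT mice 1 and 6, and the groups overlapped (log2 fold change 0.64, SE 0.37, adjusted p = 1.00, edgeR). In all CD4 T cells of the brLN Ikzf2 was 107, 88.4, 128 and 103 CPM in Aire-DTR mice 4, 7, 8 and 36, against 64.8, 78.6 and 87.5 CPM in WT mice 1, 6 and 97. These groups did not overlap, though mouse 7 and WT mouse 97 nearly met, and the log2 fold change was 0.44 (SE 0.16, 95% interval 0.13 to 0.76, adjusted p = 0.913, edgeR). Aire-DTR was higher within 3 of 3 pools there. The comparisons share mice and cells, so the common sign adds no independent evidence.

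Il2ra was lower in Aire-DTR Treg cells of the udLN, at 242, 263, 284 and 271 CPM in mice 4, 7, 8 and 36, against 356 and 617 CPM in WT mice 1 and 6. The 4 Aire-DTR values lay close together and below both WT values. The log2 fold change was -0.72 (SE 0.31, 95% interval -1.37 to -0.078, adjusted p = 1.00, edgeR). The Il2ra values in Treg cells of the brLN were 316, 410, 593 and 366 CPM in those Aire-DTR mice, against 523 and 467 CPM in WT mice 1 and 97, with overlap (log2 fold change -0.44, SE 0.22, adjusted p = 1.00, edgeR). By subset, the log2 fold change was -0.57 in Act. Treg cells (SE 0.32) and -0.24 in Resting Treg cells (SE 0.19), with adjusted p = 1.00 in both (edgeR).

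Ctla4 and Tigit showed no steady direction between genotypes. Ctla4 differed by 0.092 on the log2 scale in Treg cells of the udLN (SE 0.31, 95% interval -0.55 to 0.74) and by 0.077 in those of the brLN (SE 0.21, interval -0.36 to 0.52), with adjusted p = 1.00 in both (edgeR). Tigit in Treg cells of the udLN was 47.1, 151, 265 and 135 CPM in Aire-DTR mice 4, 7, 8 and 36, against 209 and 332 CPM in WT mice 1 and 6. In the brLN it was 264, 48.2, 229 and 225 CPM in those Aire-DTR mice, against 23.8 and 211 CPM in WT mice 1 and 97. The groups overlapped in both nodes, with log2 fold changes of -0.88 (SE 0.47) in the udLN and 0.68 (SE 0.52) in the brLN, each with adjusted p = 1.00 (edgeR). Resting Treg cells had 0 Tigit UMIs, so a Tigit level over Treg cells also moves with the share of Act. Treg cells. That share averaged 47.2% in Aire-DTR and 40.4% in WT mice in the udLN. In the brLN it averaged 36.5% and 26.3%, and its part in the Tigit values was not tested. The 23.8 CPM of WT mouse 1 rests on 2 UMIs.

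**Figure D3:**
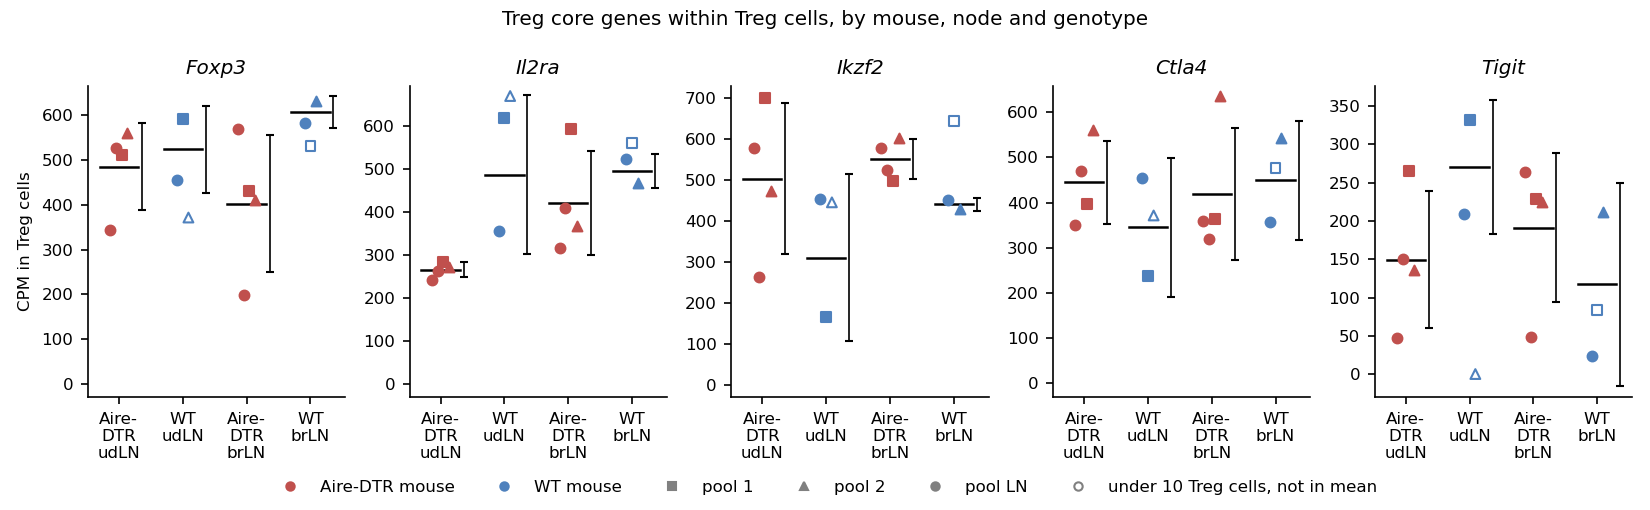
Level of each gene in Treg cells (CPM, vertical axis) per mouse, for Aire-DTR and WT mice in the udLN and the brLN. Lines are means and bars to their right are SD over mice with at least 10 Treg cells, open symbols are samples with fewer, and symbol shapes are pools; Foxp3 in the brLN and Il2ra in the udLN are the panels with Aire-DTR values all below the filled WT values.

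The node comparison sets the node that drains the uterus against a distant node of the same mouse. It used 6 mice with at least 20 CD4 T cells in both nodes, with mouse as a block, and 5 mice with at least 10 Treg cells in both, 1 of them WT. In all CD4 T cells 0 of 5 members passed, against 0.425% of genes, and in Treg cells 0 of 5 passed, against 0.387%. At an unadjusted p under 0.05 there were 3 members in CD4 T cells (Foxp3, Ctla4 and Tigit), against 8.44% of all genes tested, and 1 in Treg cells (Il2ra), against 7.05%. DESeq2 called 0 members in Treg cells and gave no adjusted p for the 5 in CD4 T cells. Foxp3 in all CD4 T cells was nearest to the threshold. It was 93.9, 91.6, 99.3 and 141 CPM in the udLN of Aire-DTR mice 4, 7, 8 and 36, against 76.4, 42.3, 111 and 63.1 CPM in their brLN. In WT mice 1 and 6 it was 85.4 and 154 CPM in the udLN, against 72.9 and 75.3 CPM in the brLN. It was thus higher in the udLN in 5 of 6 mice, with mouse 8 the exception, and the log2 fold change was 0.59 (SE 0.15, 95% interval 0.29 to 0.89, adjusted p = 0.0631, edgeR). Without mouse 8 it was 0.70 (adjusted p = 0.0192, edgeR), and it passed with no low-count filter (0.55, adjusted p = 0.0151), with no mouse block (0.64, adjusted p = 0.0478) and with the duplicated cells left in (0.66, adjusted p = 0.0387).

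Within Treg cells, fitted without WT mouse 6, the Foxp3 levels of the nodes lay closer together. The difference between this fit and that over CD4 T cells was not tested. Foxp3 averaged 479 ± 85.3 CPM in the udLN and 439 ± 155 CPM in the brLN (SD, n = 5 mice), higher in the udLN in 3 of 5 mice. The log2 fold change was 0.14 (SE 0.20, 95% interval -0.25 to 0.54, adjusted p = 0.990, edgeR). The part of the share of Treg cells in the Foxp3 sum over CD4 T cells was not tested either. Treg cells were 20.1% ± 2.82 of CD4 T cells in the udLN and 14.7% ± 4.33 in the brLN (SD, n = 6 mice), higher in 5 of 6 mice. The exact two-sided paired permutation test gave p = 0.0625, and 0.0938 adjusted over 3 shares. Act. Treg cells were 8.92% ± 3.24 of CD4 T cells in the udLN and 5.07% ± 1.89 in the brLN, higher in 6 of 6 mice, at the exact test's smallest possible p of 0.0313 (0.0938 adjusted). Resting Treg cells were 11.2% ± 4.19 in the udLN and 9.63% ± 2.96 in the brLN, with an exact p of 0.594.

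Il2ra was lower in Treg cells of the udLN than of the brLN in 5 of 5 mice. It was 242, 263, 284 and 271 CPM in the udLN of Aire-DTR mice 4, 7, 8 and 36 and 356 CPM in that of WT mouse 1, against 316, 410, 593, 366 and 523 CPM in the brLN of the same mice. The smallest gap was in mouse 4 and the largest in mouse 8. The log2 fold change was -0.58 (SE 0.18, 95% interval -0.94 to -0.22), which did not pass the adjustment (adjusted p = 0.267, edgeR). Over all CD4 T cells Il2ra differed by 0.073 on the log2 scale (SE 0.16, adjusted p = 0.953, edgeR). Beside these values, Act. Treg cells, the subset with the lower Il2ra level, made up 47.7% ± 17.1 of Treg cells in the udLN and 34.5% ± 8.64 in the brLN (SD, n = 5 mice), with an exact p of 0.3125 where 0.0625 is the smallest possible. The part of this mix in the Il2ra difference was not tested.

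The values of the other members over all CD4 T cells and within Treg cells stand side by side here, and the difference between these fits was not tested. Ctla4 in all CD4 T cells had a log2 fold change of 0.39 (SE 0.13, adjusted p = 0.247, edgeR) and was higher in the udLN in 5 of 6 mice, while in Treg cells it was 0.13 (SE 0.17, adjusted p = 0.990). Tigit in all CD4 T cells had 0.84 (SE 0.27, adjusted p = 0.240, edgeR) and was higher in 4 of 6 mice, while in Treg cells it was -0.085 (SE 0.37, adjusted p = 0.990). All Tigit UMIs of Treg cells were in Act. Treg cells, and the part of their share in the Treg value was not tested. Without mouse 4 the Tigit value over CD4 T cells was 1.22 (adjusted p = 0.0265, edgeR), and with no low-count filter 0.80 (adjusted p = 0.0156). CD4 T cells other than Treg held 26.2 ± 16.6 CPM of Tigit in the udLN and 9.36 ± 7.32 CPM in the brLN (SD, n = 6 mice), higher in 5 of 6. Ikzf2 differed by 0.17 in CD4 T cells (SE 0.13, adjusted p = 0.83, edgeR) and -0.13 in Treg cells (SE 0.17, adjusted p = 0.990, edgeR).

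**Figure D4:**
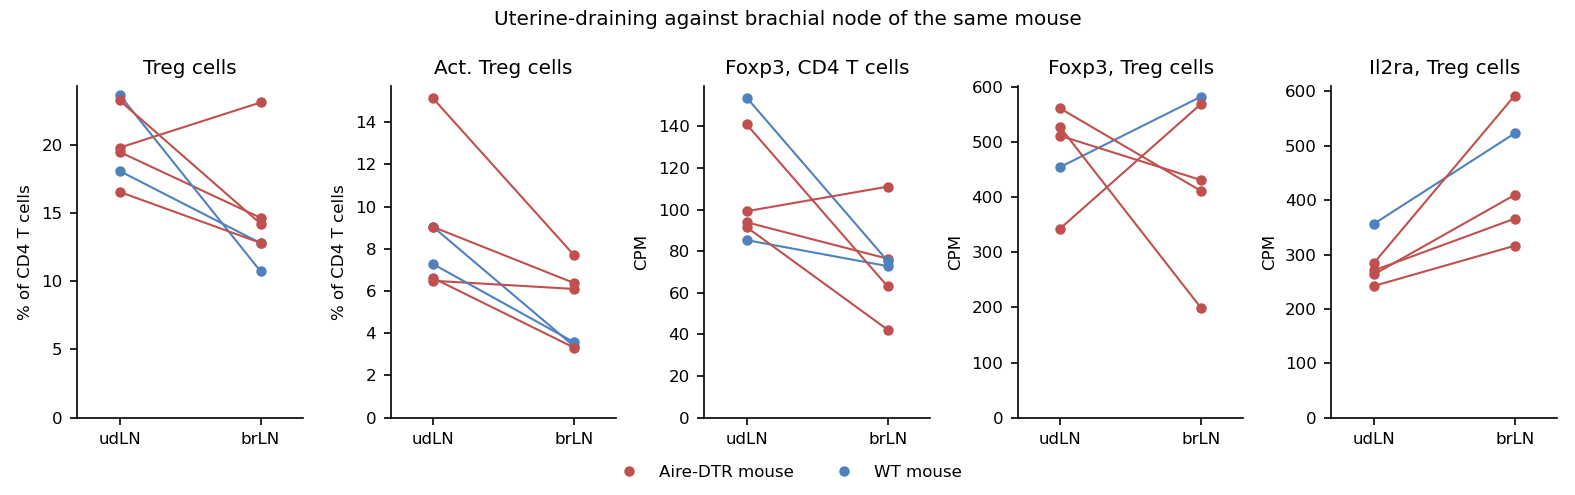
Share of Treg and Act. Treg cells among CD4 T cells (%), and levels (CPM) of Foxp3 in all CD4 T cells and of Foxp3 and Il2ra in Treg cells, in the udLN and brLN of the same mouse joined by a line. Act. Treg shares are higher in the udLN in 6 of 6 mice and Il2ra in Treg cells is lower there in 5 of 5.

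Shares of Treg cells overlapped between the genotypes. In the udLN Treg cells were 19.5%, 16.5%, 19.8% and 23.2% of CD4 T cells in Aire-DTR mice 4, 7, 8 and 36, against 18.1% and 23.6% in WT mice 1 and 6. The exact two-sided permutation p was 0.80, where 0.133 is the smallest that 4 against 2 mice allow. In the brLN they were 14.6%, 12.8%, 23.1% and 14.2% in the Aire-DTR mice, against 12.8%, 10.7% and 17.8% in WT mice 1, 6 and 97, with an exact p of 0.514 where 0.0571 is the smallest possible. Act. Treg cells in the brLN were 5.87% ± 1.84 of CD4 T cells in Aire-DTR mice (SD, n = 4) and 3.87% ± 0.690 in WT mice (SD, n = 3), with an exact permutation p of 0.229.

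The interaction test asks whether the node difference itself depended on genotype. No member passed it, 0 of 5 in all CD4 T cells against 0.0781% of genes and 0 of 5 in Treg cells against 0.0814%. Tigit had the lowest unadjusted p of the 5 in both (0.0015 and 0.0010, edgeR), Il2ra was also under 0.05 in CD4 T cells, and DESeq2 called 0 members. In Aire-DTR mice 4, 7, 8 and 36 Tigit in all CD4 T cells was 23.2, 44.3, 63.8 and 74.8 CPM in the udLN, against 37.5, 7.55, 74.0 and 41.8 CPM in the brLN. In WT mice 1 and 6 it was 47.2 and 98.9 CPM in the udLN, against 9.44 and 16.4 CPM in the brLN. The node difference was positive in both WT mice and in 2 of 4 Aire-DTR mice. The difference of differences was -1.95 on the log2 scale (SE 0.58, 95% interval -3.12 to -0.79, adjusted p = 0.715, edgeR), and without Aire-DTR mouse 7 it was -2.28 (adjusted p = 0.0115). In Treg cells WT mouse 1 alone stands for its genotype and is assumed to vary like the Aire-DTR mice, so the value compares that mouse with them. It was -3.64 (SE 1.03), and -4.00 without mouse 7. The brLN level of WT mouse 1 behind both values was 23.8 CPM, which is 2 UMIs in 34 Treg cells. That is fewer than the 3 counts of the floor, so the size of these values is poorly determined. With samples of at least 5 Treg cells allowed in, which adds WT mice, the difference of differences was -1.68 (adjusted p = 0.992, edgeR).

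**Figure D5:**
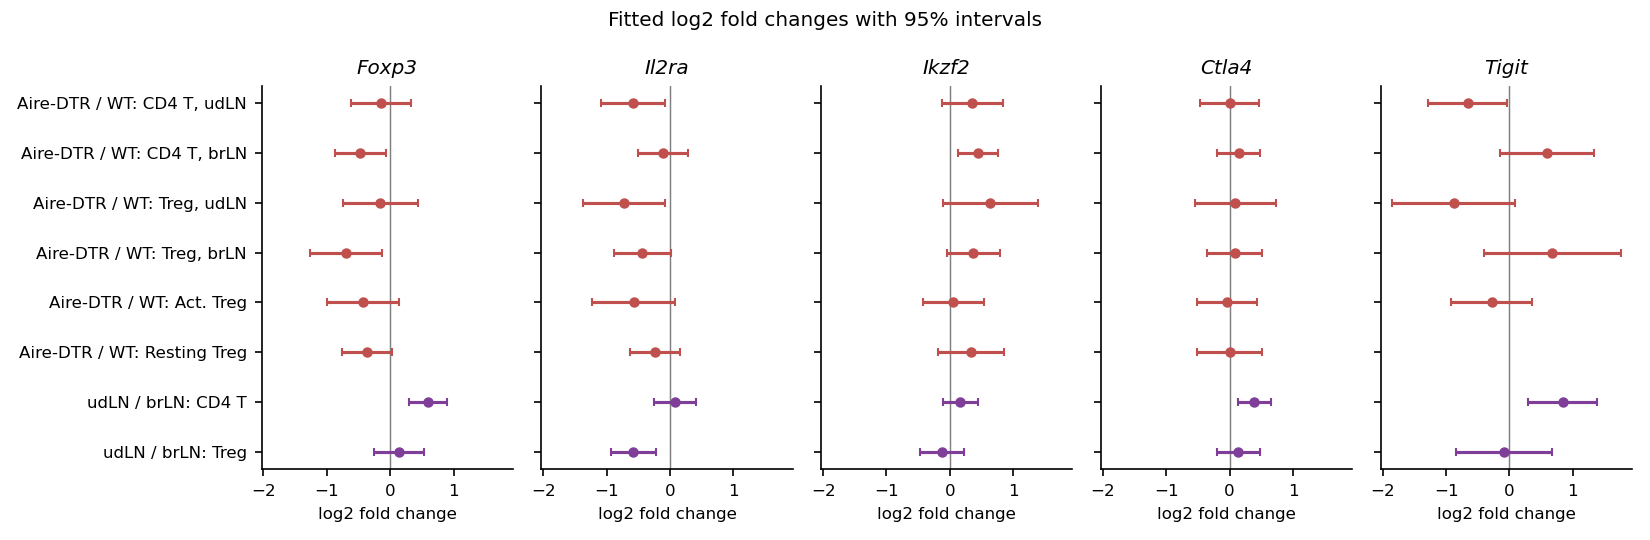
Fitted log2 fold changes (horizontal axis) of each gene with 95% intervals, for Aire-DTR over WT in 6 comparisons and udLN over brLN in 2. Foxp3 lies below 0 and Ikzf2 above 0 in the 6 genotype comparisons, Tigit is missing in Resting Treg cells, and no value shown passed an adjusted p of 0.05 in edgeR.

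Genes that work with the members were tested in the same fits. Of 9 receptor partners and downstream genes of Il2ra, 0 passed in any of the 10 comparisons. Within Treg cells of the udLN 0 of 5 of them that were tested were higher in Aire-DTR mice and 5 lower, where 50.7% of all genes were higher. Their median log2 fold change was -0.099, against 0.0049 over all genes. In the brLN 0 of 7 were higher and 7 lower, where 48.8% of all genes were higher. The median there was -0.29, against -0.0081 over all genes. In all CD4 T cells the list had 5 higher and 3 lower in the udLN, with a median of 0.030, where 49.5% of all genes were higher. In the brLN it had 2 higher and 7 lower, with a median of -0.071, where 49.7% of all genes were higher. The genes of the list share mice and cells, so a common sign adds no independent evidence. Il2rb, the beta chain shared with the IL-15 receptor, had -0.64 (SE 0.29, adjusted p = 1.00) in the udLN and -0.29 (SE 0.22, adjusted p = 1.00, edgeR) in the brLN. The gamma chain gene Il2rg had -0.061 (SE 0.24) and -0.021 (SE 0.18), and the kinase gene Jak1 had -0.055 (SE 0.33) and -0.42 (SE 0.25). Cish, a gene induced by IL-2 signalling, was lower in Treg cells of the udLN than of the brLN by a log2 fold change of -0.78 (SE 0.27, adjusted p = 0.302, edgeR).

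Of 15 partners and paralogs of Foxp3 and Ikzf2, 0 passed in any comparison. Of 6 tested in Treg cells of the brLN, 2 were higher and 4 lower in Aire-DTR mice, where 48.8% of all genes were higher. Foxp1, a Foxp3 relative, had -0.48 (SE 0.27) and the forkhead gene Foxo1 had -0.43 (SE 0.26). The Ikaros family gene Ikzf3 had a log2 fold change of 0.54 between udLN and brLN Treg cells (SE 0.22, adjusted p = 0.497, edgeR). Of 13 ligands, counterpart receptors and trafficking genes of Ctla4 and Tigit, 12 were in the table and 0 passed. Cd28 in Treg cells of the brLN had -0.80 in Aire-DTR over WT mice (SE 0.30, adjusted p = 1.00, edgeR), and Icos, its relative and a costimulatory receptor, had 0.50 (SE 0.35, adjusted p = 1.00).

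Of 26 other genes known from Treg cells, a list drawn up with earlier results of these data known, 5 passed in at least 1 of the 10 comparisons. The share of all genes that passed in at least 1 of the 10 was not counted, and in a single comparison it was between 0% and 0.425%. The list had most calls between nodes in CD4 T cells, with 2 higher and 1 lower of 14 tested, against 0.425% of all genes. Because the list was not chosen independently of these data, its excess of calls over all genes cannot be read as a result about Treg genes. Tnfrsf9, which encodes the costimulatory receptor 4-1BB, was lower in Aire-DTR than WT CD4 T cells of the udLN (log2 fold change -1.27, SE 0.31, adjusted p = 0.0282, edgeR). That call was lost with DESeq2 (adjusted p = 0.9998), no pool term (0.821), both nodes in 1 fit (0.691), no low-count filter (0.0915), duplicated cells left in (0.195) and without mouse 1, 4, 6 or 8, and with nodes summed the value was -0.31 (0.918). Izumo1r, which encodes folate receptor 4, was higher in the udLN than the brLN in CD4 T cells (0.63, SE 0.078, adjusted p = 3.16e-06) and in Treg cells (0.58, SE 0.13, adjusted p = 0.0227, edgeR). Nrp1, which encodes neuropilin-1, was higher in the udLN in CD4 T cells (1.11, SE 0.24, adjusted p = 0.0193, edgeR). S100a6, which encodes a calcium-binding protein, was lower in the udLN in CD4 T cells (-0.85, SE 0.12, adjusted p = 2.03e-05) and in Treg cells (-0.997, SE 0.22, adjusted p = 0.0227, edgeR). In Treg cells the calls of Izumo1r and S100a6 were both lost with DESeq2 (adjusted p = 0.9995 for each) and without mouse 1, 4 or 36, that of Izumo1r also without mouse 8, with no low-count filter (0.974) and with duplicated cells left in (0.155), and that of S100a6 with no mouse block (0.0667) and a minimum of 5 cells (0.0603). The Nrp1 call was lost without mouse 1, 6, 8 or 36 (adjusted p from 0.0510 to 0.117), and DESeq2 gave it no adjusted p. Tnfrsf4, the gene most like Ctla4 over the classes, had a difference of node differences between genotypes of -1.39 in CD4 T cells (SE 0.26, adjusted p = 0.0038, edgeR), which was -0.69 without WT mouse 1 (adjusted p = 0.811) and did not pass with DESeq2 (adjusted p = 0.9997). In Treg cells it was -2.02 (SE 0.40, adjusted p = 0.0229, edgeR), again with WT mouse 1 alone for its genotype. It was -0.93 with a minimum of 5 cells (adjusted p = 0.992), -0.70 in the CD4+ Treg class (0.982), and did not pass with DESeq2 (0.9999) or without mouse 36 (0.415).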

How the data were processed

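The deposited values were whole-number UMI counts per gene and cell, with cell tables giving mouse, genotype, node, cell type and CD4 subset, all by the authors. The submitters' processing notes name Scanpy 1.7.0, Seurat, bustools 0.40.0, kallisto 0.46.1 and the build GRCm38; whether counting used strand, and how doublets were treated, is not given in the sources used here. Cells standing 2 times with identical counts were counted once. Counts were summed per mouse, node and population, keeping sums of at least 20 CD4 T cells or 10 Treg cells. CD4 T cells were the deposited classes CD4+ Treg, CD4+ Mem T and CD4+ Naive T.

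Sums were tested with edgeR 4.0.16 (R 4.3.3; TMM scaling, filterByExpr, quasi-likelihood test), with pool as covariate for genotype and mouse as block for node and interaction, and Benjamini-Hochberg adjustment over all genes tested at 0.05. The block rests on the deposited table, which gives both nodes of each mouse. DESeq2 1.42.0 was an alternative, as were its size factors, no filter, no pool term, both nodes in 1 fit or summed, the CD4+ Treg class, each mouse left out and, chosen after seeing the data, the duplicated cells left in and a minimum of 5 Treg cells. Shares were compared with exact permutation tests over mice. The procedure was tested on simulated data. Per-cell shares were thinned to 1500 UMIs; intervals and floors of 3 counts cover counting error only. The members and gene lists were chosen with earlier results of these data known. Besides members, genes were named by a rule: the 5 highest Pearson r per member, over genes with at least 20 CPM in a class and 50 UMIs in all; list genes past the threshold; and at most 4 further genes per list with the highest Treg level.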

Additional observations from a re-analysis of the deposited data

Results flagged for a closer look

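In 37 groups of 4 or more mice examined, 5 had 1 mouse far from the others (Dixon's test at 95%), and chance flags about 1 group in 20. Only Aire-DTR mice, 4 in number, made groups of that size, so no WT mouse could be marked. Mouse 36 had Foxp3 at 141 CPM in CD4 T cells of the udLN and Ctla4 at 636 CPM in Treg cells of the brLN. Mouse 8 had Il2ra at 151 CPM in CD4 T cells of the brLN and at 799 CPM in Resting Treg cells with both nodes summed. In mouse 8, Act. Treg cells were 76.5% of the 17 Treg cells of the udLN.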

How the results depend on the processing

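Of 306 member values under alternatives other than leaving out a mouse, 26 changed sign and 4 passed the threshold. Of 288 with 1 mouse left out, 33 changed sign and 5 passed. The CD4+ Treg class also lost Aire-DTR mouse 8, with 7 such cells in the udLN, from the udLN, node and interaction fits. The cause of these changes was not tested. The values that passed stand in the report, and the count of members called over CD4 T cells between nodes was 2 with no low-count filter and 1 with the duplicated cells left in; it lay between 0 and 1 with a mouse left out, as did those of Treg cells of the brLN by genotype and of both interactions.

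With no replicate block, the pairing of the nodes of a mouse dropped, 1 member (Foxp3) passed between nodes in CD4 T cells, and 2 genes in Treg cells, against 5 with the block. For genotype, mouse could not be a block because a mouse has 1 genotype; mice of both genotypes shared each pool, and pool was a term of that fit.

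Counts of all genes called moved as follows. For genotype in CD4 T cells of the udLN, 7 genes became 1 with DESeq2, no pool term or both nodes in 1 fit, 3 with no filter, and 2 with nodes summed or duplicates left in (3 to 14 with a mouse left out). In CD4 T cells of the brLN, 1 became 0 with DESeq2, no pool term or both nodes in 1 fit, 14 with no filter and 2 with nodes summed (0 to 3). For Treg cells of the brLN, 0 became 3 with no filter, 6 in the CD4+ Treg class and 1 with a minimum of 5 cells (0 to 7), and in those of the udLN leaving out a mouse gave 0 to 2. In Act. Treg cells, 2 became 0 with DESeq2, 1 with no pool term and 4 with duplicates (0 to 10), and in Resting Treg cells 1 became 0 with DESeq2 or no pool term and 4 with no filter or duplicates (0 to 7). Between nodes, 22 in CD4 T cells became 8 with DESeq2 and 112 with no filter (8 to 24), and 5 in Treg cells became 0 with DESeq2, 12 with no filter, 3 with a minimum of 5 cells and 2 with duplicates (0 to 8). For the interaction, 5 in CD4 T cells became 0 with DESeq2 and 10 with no filter (1 to 8), and 2 in Treg cells became 0 with DESeq2 or a minimum of 5 cells, 6 with no filter or in the CD4+ Treg class and 5 with duplicates (1 to 5).

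Changed signs, as log2 fold changes, were mostly of values near 0. Ctla4 by genotype was 0.026 with DESeq2, 5.7e-05 with its size factors, 0.028 with both nodes in 1 fit, 0.021 with no filter, 0.18 with no pool term and 0.11 with nodes summed in CD4 T cells of the udLN; -0.31 in the CD4+ Treg class, -0.014 with duplicates and -0.0069 with both nodes in 1 fit in Treg cells of the udLN; -0.30 in the CD4+ Treg class, -0.0077 with a minimum of 5 cells and -0.12 with no pool term in those of the brLN; 0.10 with no filter in Act. Treg cells, and 0.042 with DESeq2 and 0.014 with no filter in Resting Treg cells. Tigit with nodes summed was 0.20 in CD4 T cells against the udLN value and -0.032 in Treg cells against the brLN value. Foxp3 in CD4 T cells of the udLN was 0.0023 with duplicates. Between nodes in Treg cells, Ctla4 was -0.011 with a minimum of 5 cells, and Tigit 0.22 with DESeq2 and 0.055 with duplicates. The Treg interaction in the CD4+ Treg class was 0.042 for Il2ra, 0.28 for Ikzf2 and 0.034 for Ctla4, and with a minimum of 5 cells 0.34 for Ikzf2 and 0.31 for Ctla4.

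Leaving out 1 mouse gave ranges that crossed 0. By genotype in CD4 T cells these were -0.65 to 0.14 for Foxp3 and -0.11 to 0.30 for Ctla4 in the udLN and -0.41 to 0.27 for Il2ra in the brLN. In Treg cells they were -0.30 to 0.028 for Foxp3 and -0.22 to 0.73 for Ctla4 in the udLN, and -0.079 to 0.23 for Ctla4 in the brLN. Act. Treg cells gave -0.16 to 0.38 for Ikzf2 and -0.11 to 0.024 for Ctla4, and Resting Treg cells -0.19 to 0.59 for Ikzf2 and -0.19 to 0.22 for Ctla4. Between nodes the ranges were -0.070 to 0.27 for Il2ra in CD4 T cells, and in Treg cells -0.086 to 0.38 for Foxp3, -0.27 to 0.022 for Ikzf2 and -0.54 to 0.51 for Tigit. The interaction ran from -0.31 to 0.42 for Foxp3, -0.36 to 0.25 for Ikzf2 and -0.55 to 0.31 for Ctla4 in CD4 T cells, and from -0.15 to 0.071 for Il2ra and -0.36 to 0.0039 for Ikzf2 in Treg cells. Differences of shares between genotypes, in percentage points, ran from -3.89 to 1.68 for Treg, -0.776 to 2.10 for Act. Treg and -5.93 to 1.40 for Resting Treg cells in the udLN, from -1.28 to 2.04 for Resting Treg cells in the brLN, and from -2.98 to 16.4 for Act. Treg among Treg cells in the udLN.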
